A study of Mus musculus with 31 samples.

Results

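The 50 genes described here belong to the families of enzymes that write and erase histone acetylation and histone methylation, and of those that add or oxidise DNA methylation. They were chosen by name and enzyme class. They comprised 6 DNA methylation genes, 9 acetyltransferases, 12 deacetylases, 11 histone methyltransferases and 12 histone demethylases, among 25497 genes with an annotated transcript. All 50 passed the filter on low counts, which left 14886 genes to test. RNA-seq of the thalamus was made from 31 mice at postnatal day 90 to ask whether the rearing of the mother changed gene expression in adult offspring. In 15 mice (7 males, 8 females) the maternal housing was social isolation rearing (SIR), and 16 mice (8 males, 8 females) were control offspring. The labels name no strain, allele or litter, and no treatment of the offspring themselves.

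Acetyltransferases such as p300 and CBP place acetyl groups on histone tails at active enhancers and promoters, and histone deacetylases and sirtuins remove them. Histone methyltransferases and demethylases set methyl marks that go with either active or silent chromatin, depending on the residue. Dnmt enzymes methylate cytosine, and Tet enzymes oxidise methylcytosine on the way to its removal. In neurons these enzymes are known for their part in activity-dependent transcription, and mutations of several of them cause neurodevelopmental disorders.

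Library totals ran from 13 M to 25.74 M estimated counts, with a median of 23.28 M. Markers of thalamic relay neurons were present in every group, with a summed level of 4000 to 7420 CPM (counts scaled to library size), and none of the 11 was at 0 throughout a group. The median was 4680 CPM in SIR males, 5670 in control males, 5720 in SIR females and 5620 in control females. The library labelled SIR female 5 held the Y-linked genes Kdm5d at 15.4 CPM and Uty at 7.79 CPM, whereas the other 15 libraries labelled female reached at most 0.8 and 0.255 CPM. The X-linked genes Kdm5c (79.6 CPM) and Kdm6a (18.2 CPM) in SIR female 5 lay within the male ranges of 68.1 to 85.3 and 15.4 to 21.5 CPM. The other libraries labelled female were higher, at 89.0 to 113 and 24.1 to 33.8 CPM. SIR female 5 was kept under its label, so all values given for SIR females include it. The library numbers of the SIR offspring all lay below those of the controls, so handling by number range and maternal housing cannot be told apart. Within each housing some numbers lie well away from the rest, 8 libraries in all (1 SIR male, 2 SIR females, 2 control males and 3 control females), and results are also given without them. Where litter mates are among the animals they were counted as separate, since the labels give no litters.

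Levels between genes are compared as TPM, which scales for transcript length and library size. Deacetylases held the highest levels: Hdac11, the class IV deacetylase, averaged 183 ± 20.7 TPM (SD, n = 31), followed by Hdac5 at 150.4 TPM and Hdac2 at 84.3 TPM. The highest acetyltransferase was Kat5 (Tip60) at 83.5 ± 9.7 TPM. Ehmt2 (G9a), which methylates histone H3 lysine 9, led the methyltransferases at 76.8 ± 6.53 TPM. Kdm1a (LSD1), the flavin-dependent demethylase, led its class at 56.7 ± 5.6 TPM. Among the DNA methylation genes the maintenance methyltransferase Dnmt1 stood highest at 23.8 ± 3.15 TPM. At the other end were the de novo methyltransferase Dnmt3b at 0.258 TPM, Hdac10 at 2.66 TPM and the Polycomb methyltransferase Ezh2 at 2.96 TPM. Of the 50 genes, 42 averaged over 10 TPM.

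**Figure D1:**
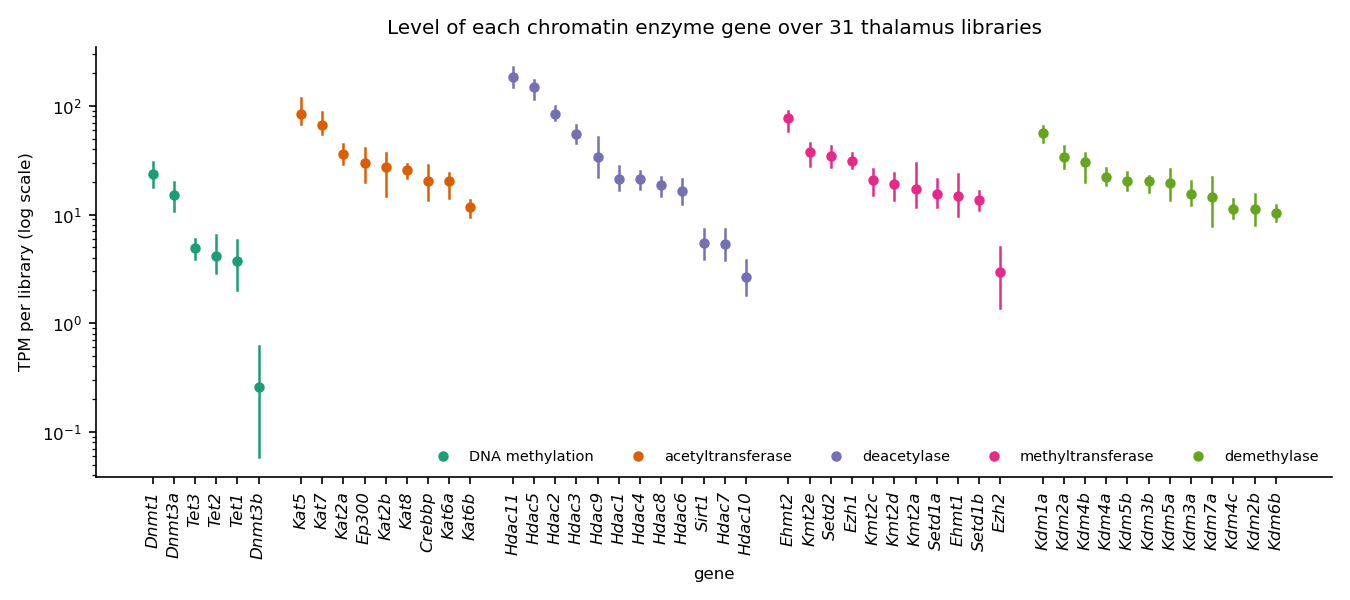
TPM of each of the 50 genes on a log scale, grouped by enzyme class. Points are means over the 31 libraries and lines run from the lowest to the highest library. Hdac11 at 183 TPM is the highest and Dnmt3b at 0.258 TPM the lowest.

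Of the 50 enzyme genes, 6 were lower in SIR offspring over both sexes and none was higher. They were the histone H3 lysine 4 methyltransferase Kmt2c, the acetyltransferases Ep300, Crebbp, Kat2b and Kat6a, and the demethylase Kdm5a. The male and female differences were averaged, so a gene can pass through 1 sex. The decreases were small, from 7.25% to 12.2% of the control level. Among all tested genes 4.55% passed the same threshold (edgeR quasi-likelihood test, Benjamini-Hochberg adjusted p at or under 0.05), 2.79% lower and 1.75% higher. The share of members called lower was 12%. The median log2 fold change was -0.04 over the 50 genes and -0.01 over all genes tested, and 38 of the 50 were negative against 52.3% of all genes. At an unadjusted p under 0.05 there were 14 members (28%), against 22% of all genes.

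The 50 genes are long, and long transcripts as a whole were lower in SIR libraries. With the trend of expression on transcript length removed in each library, none of the 6 genes passed (smallest adjusted p = 0.142) and the members' median was 0.00 (-0.002), while 0.168% of all genes passed. The 6 log2 fold changes were then -0.16 for Kat2b, -0.10 for Kmt2c, -0.08 for Ep300 and for Kdm5a, and -0.03 for Crebbp and for Kat6a. That trend is described further on, with genes of the same length. With the transcript lengths of each library as offsets instead, none of the 6 passed either (smallest adjusted p = 0.0563, Kat6a). Crebbp (-0.21 ± 0.09), Ep300 (-0.20 ± 0.07), Kdm5a (-0.18 ± 0.065) and Kat6a (-0.14 ± 0.04) were then more negative than as counted, with larger SE. Kmt2c (-0.13 ± 0.04) and Kat2b (-0.13 ± 0.11) were less negative. The call also rested on single libraries. Kmt2c alone passed when any 1 of 9 libraries was left out: SIR males 1, 6 and 15, SIR females 3 and 5, control males 21, 22 and 25, or control female 30. Only 2 genes passed without SIR female 12 or control females 17, 29 or 31, and 3 without SIR male 8, SIR female 10 or control male 23. Without the 8 libraries numbered apart from the rest no gene of the 14886 passed, members included.

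**Figure D2:**
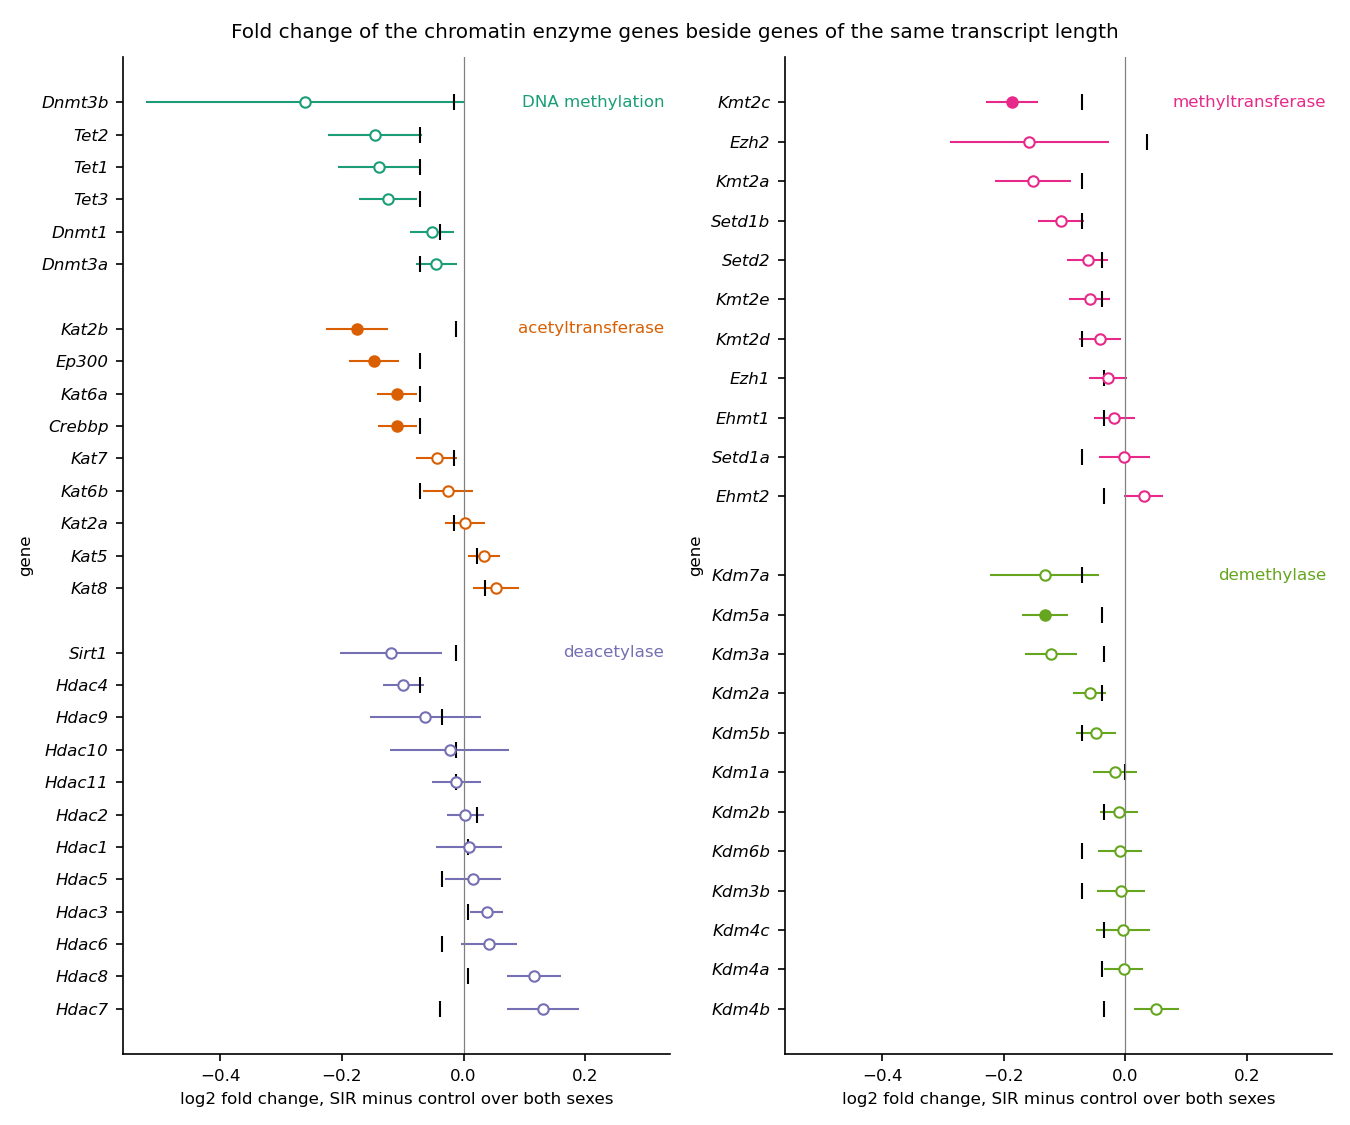
Log2 fold change of each gene, SIR minus control over both sexes, with SE as lines, grouped by enzyme class. Filled points passed the adjusted threshold of 0.05, and black ticks give the median of other genes in the same length bin (1 of 10 bins of equal gene number). The 6 filled points lie between -0.19 and -0.11, each below its tick's value.

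Kmt2c (MLL3), a catalytic subunit of an enhancer-associated lysine 4 methyltransferase complex, showed the smallest p of the 50. SIR males ran from 71.4 to 92.0 CPM with a median of 86.0, and control males from 92.7 to 120.0 with a median of 97.3. SIR females ran from 87.6 to 116 CPM (median 101), and control females from 102 to 119.7 (median 106). The males of the groups did not overlap, whereas the females did. Over both sexes the log2 fold change was -0.19 ± 0.04 (SE, adjusted p = 0.0178), and 13 of 15 SIR libraries lay below the control median. Leaving out any 1 library moved it only between -0.20 and -0.16, with adjusted p up to 0.0393. The value was -0.10 (adjusted p = 0.142) after removal of the length trend.

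Ep300 and Crebbp encode p300 and CBP, the paralogous coactivators that acetylate histone H3 lysine 27. Ep300 ran from 74.6 to 88.2 CPM in SIR males (median 81.1) and from 76.6 to 107 in control males (median 94.8). In females it ran from 81.8 to 90.4 CPM in SIR (median 89.45) and from 84.7 to 109 in control (median 91.1). All 15 SIR libraries lay below the median of the control libraries, although 13 were inside the control range. Its log2 fold change was -0.15 ± 0.04 (adjusted p = 0.038). Crebbp ran from 67.2 to 73.4 CPM in SIR males (median 71.3) against 69.5 to 88.65 in control males (median 82.9). The female ranges were 68.7 to 80.0 CPM in SIR (median 73.4) and 69.9 to 78.5 in control (median 75.5). The Crebbp groups were thus apart mainly in males, and its log2 fold change over both sexes was -0.11 ± 0.03 (adjusted p = 0.0444).

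Kat2b (PCAF) is an acetyltransferase of SAGA-type complexes, and Kat6a (MOZ) belongs to the MYST family. Kat2b ran from 29.65 to 41.9 CPM in SIR males (median 33.2) and from 35.2 to 41.3 in control males (median 36.85). SIR females ran from 31.2 to 43.2 CPM (median 36.6), and control females from 38.7 to 51.5 (median 44.4). Control females were the highest group, and all 8 SIR females lay below their median. The log2 fold change was -0.18 ± 0.05 (adjusted p = 0.0425). Unlike the other genes called, Kat2b has a middling effective length (2808 bases), and genes of that effective length had a median of -0.01. Its leading transcript, Kat2b-201, is annotated at 4653 bases. With the length trend removed the Kat2b value was close to that before, at -0.16 ± 0.06 (unadjusted p = 0.00708, adjusted p = 0.154). With the transcript lengths of each library as offsets instead, Kat2b stood at -0.13 ± 0.11 (unadjusted p = 0.243, adjusted p = 0.542). Kat6a ran from 66.45 to 79.4 CPM in SIR males (median 73.9) and from 70.6 to 88.3 in control males (median 82.0). Its female ranges were 79.7 to 87.3 CPM in SIR (median 85.2) and 83.4 to 101 in control (median 87.5). Kat6a showed lower values in males than in females under either housing, and 13 SIR libraries were inside the control range. The log2 fold change was -0.11 ± 0.03 (adjusted p = 0.049).

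Kdm5a (JARID1A) removes methyl groups from histone H3 lysine 4. It ran from 39.85 to 48.1 CPM in SIR males (median 46.25) and from 45.95 to 53.7 in control males (median 48.7). Among females the range was 44.3 to 53.4 CPM in SIR (median 46.65) and 46.3 to 60.98 in control (median 53.5). The ranges overlapped in each sex, and 13 of 15 SIR libraries lay below the control median. The log2 fold change was -0.13 ± 0.04 (adjusted p = 0.0402), close to the same in males (-0.12) and females (-0.14).

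**Figure D3:**
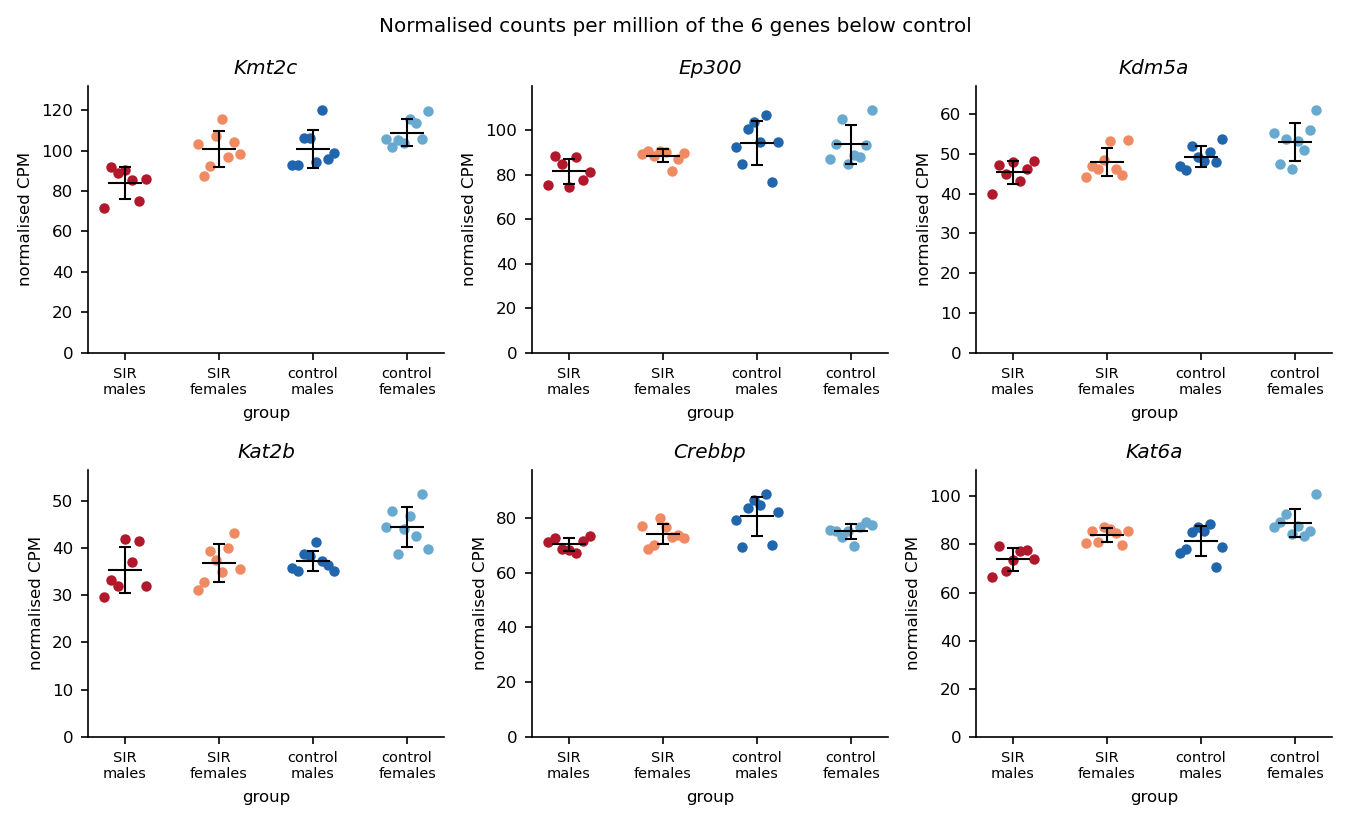
Normalised CPM of the 6 genes that were lower over both sexes, 1 point per library in each of the 4 groups, with mean and SD as black bars. Kmt2c in males is the pair without overlap, with SIR males up to 92.0 and control males from 92.7 CPM.

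By class, the 6 DNA methylation genes all had negative values with a median of -0.13, and none passed the test. Tet3, the class's smallest p, ran from 24.45 to 29.75 CPM in SIR males (median 27.1) and from 24.1 to 33.1 in control males (median 28.8). In females the range was 23.1 to 34.3 CPM for SIR (median 28.2) and 27.8 to 33.7 for control (median 32.3). These ranges overlapped widely, and the log2 fold change was -0.12 ± 0.05 (adjusted p = 0.121). Tet1 and Tet2 stood at -0.14 and -0.15, and Dnmt3a at -0.05. Dnmt1 stood at 55.4 ± 4.15 CPM (SD, n = 7) in SIR males and 61.9 ± 4.42 (n = 8) in control males. It stood at 60.9 ± 4.07 CPM in SIR females and 58.5 ± 3.45 in control females (n = 8 each). Its log2 fold change over both sexes was -0.05 ± 0.04 (adjusted p = 0.418). Dnmt3b was too low for a precise value (-0.26 ± 0.26).

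The 12 deacetylases had a median of 0.01, and none passed. The class held both signs: 5 were negative, led by Sirt1 (-0.12), the NAD-dependent deacetylase, and 7 were positive, up to Hdac7 (0.13) and Hdac8 (0.12). Hdac4, a class IIa enzyme that shuttles between nucleus and cytoplasm in neurons, had the class's smallest p. It stood at 59.3 ± 4.18 CPM in SIR males (n = 7), 61.4 ± 3.73 in control males, 58.6 ± 4.45 in SIR females and 64.9 ± 3.44 in control females (SD, n = 8 each). Its log2 fold change was -0.10 ± 0.03 (adjusted p = 0.0832). Hdac11, the most abundant member, was at 274 ± 31.7 CPM in SIR males, 275 ± 17.1 in control males, 266 ± 18.04 in SIR females and 268 ± 15.7 in control females. That difference of -0.01 ± 0.04 was smaller than its own error. Sirt1, Hdac7 and Hdac8 were picked out after their values were seen.

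Among the other acetyltransferases Kat5 stood at 71.4 ± 2.13 CPM in SIR males, 67.4 ± 3.36 in control males, 66.7 ± 2.75 in SIR females and 67.4 ± 3.33 in control females. Its log2 fold change was 0.03 ± 0.03 (adjusted p = 0.471), and the class ran from -0.18 to 0.05 with a median of -0.04. Of the 11 methyltransferases 10 were negative (median -0.06), from Kmt2c to Ehmt2 at 0.03 ± 0.03. Ehmt2 stood at 160 ± 7.9 CPM in SIR males, 162 ± 5.25 in control males, 157 ± 9.73 in SIR females and 148 ± 11.7 in control females. Of the 12 demethylases 11 were negative, yet the median was -0.01, since 7 lay within 0.05 of 0. Kdm1a stood at 56.9 ± 4.64 CPM in SIR males, 61.8 ± 3.03 in control males, 62.5 ± 4.57 in SIR females and 58.9 ± 3.96 in control females. Its difference over both sexes was -0.02 ± 0.04 (adjusted p = 0.831), and its sign differed between males (-0.12) and females (0.08).

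Within males, Crebbp (-0.19 ± 0.05, adjusted p = 0.0304) and Kmt2c (-0.26 ± 0.06, adjusted p = 0.0309) were lower in SIR offspring and none was higher. The background in males was 1.33% of genes, with 1.05% lower and 0.282% higher. At an unadjusted p under 0.05 there were 15 members (30%), against 17.6% of all genes. All 7 SIR males lay below the control male median for both genes. Neither passed when SIR male 1, 6 or 15 or control male 21, 22 or 25 was left out, nor after removal of the length trend (-0.09, adjusted p = 0.343, and -0.15, adjusted p = 0.182). Without control male 27, 6 members passed. Without the 8 libraries numbered apart 6 members passed as well: Crebbp, Kat6a, Kmt2c, Setd1b and Ep300 lower and Hdac8 higher. In the same comparison 8 of 11 relay neuron markers were negative and 1 was called lower. Their median was -0.16, beside -0.04 for genes of the same lengths. Summed relay levels were 4530 to 7420 CPM in SIR males and 5210 to 7200 CPM in control males. The part of these cells in the male calls was not tested.

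Within females only Kat2b passed, at -0.27 ± 0.07 (adjusted p = 0.0214), with a background of 4.62% (2.24% lower, 2.38% higher). Kat2b also passed without SIR female 5. The call was absent without SIR female 3 or control female 30, and its adjusted p was 0.0502 after removal of the length trend, at -0.26. Hdac4 joined it without SIR female 2, and Kat2b, Hdac4 and Kdm5a passed without control female 24. Oligodendrocyte markers moved in the same comparison. Of 12 markers 6 were lower in SIR females (median log2 fold change -0.26) and none was higher. Their summed level was 7940 to 11200 CPM in SIR females and 10600 to 12800 CPM in control females, and no marker was at 0. In males 2 of the 12 were higher (median 0.20), with summed levels of 8600 to 11200 CPM in SIR and 7710 to 10800 CPM in control. Of the 8 choroid plexus markers 2 were lower in SIR females, and of the 6 midbrain markers 2. The part of these cells in the Kat2b result was not tested. In bulk tissue, fewer cells of a type and less RNA per cell cannot be told apart.

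No member passed the test of the interaction, which asks whether the male effect differed from the female effect. There the background was 2.83% (1.75% lower, 1.08% higher). At an unadjusted p under 0.05 there were 6 members (12%), against 15.3% of all genes. Neither DESeq2 nor edgeR called a member, whereas limma-voom with sample weights called Dnmt1 and Crebbp. The closest in edgeR was Dnmt1, with -0.16 in males, 0.06 in females and an interaction of -0.22 (adjusted p = 0.093). It passed when control female 20 was left out. A call in 1 sex, such as that of Crebbp in males, was therefore not shown to differ from the other sex (interaction -0.17, adjusted p = 0.149). In all, 25 members were lower in SIR offspring of both sexes by sign, 3 were higher in both, and 22 differed in sign.

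Between the sexes 4 members passed, 3 lower and 1 higher in males, with a background of 10.1% (5.65% lower, 4.45% higher). Unadjusted p was under 0.05 for 11 members (22%), against 26.6% of all genes. Kat6a (-0.16 ± 0.03, adjusted p = 0.00352), Kmt2c (-0.18 ± 0.04, adjusted p = 0.00664) and Kat2b (-0.16 ± 0.05, adjusted p = 0.0405) were lower in males. Hdac3, the catalytic subunit of the NCoR corepressor complex, was higher in males by 0.08 ± 0.03 (adjusted p = 0.0485). Hdac3 stood at 54.4 ± 2.66 CPM in SIR males, 55.4 ± 3.0 in control males, 53.8 ± 2.19 in SIR females and 50.04 ± 1.9 in control females, so control females were the low group. In the same comparison 6 of 12 oligodendrocyte markers and 4 of 8 astrocyte markers were lower in males. So were 3 of 8 choroid plexus markers (median -1.54), 3 of 8 hippocampus and cortex markers (median -0.33) and 1 of 9 vessel markers, Col1a1. The part of these cells in the 4 calls was not tested. With the length trend removed Ehmt2 was the 1 member that passed between the sexes, beside 6.58% of all genes. Without SIR female 5, whose label the Y-linked genes go against, Kat6a and Kmt2c passed. Leaving out 1 library gave 2 members in 13 cases (SIR males 1, 4, 6 and 15, SIR females 5, 7, 10, 11 and 12, control males 22, 27 and 28, control female 30), and 8 without control female 20. Kat6a and Kmt2c passed in every such fit.

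Genes of the same transcript length served as the reference, with length taken as the TPM-weighted effective length of each gene. Of the 50 members 42 were longer than the median tested gene (2434 bases), with a median of 4069 bases, and 18 lay in the longest of 10 length bins of equal gene number. Genes in the shortest bin (median 671 bases, members aside) had a median log2 fold change of 0.06 in SIR offspring, and 0.0672% of them were called lower. The longest bin (median 6543 bases) had a median of -0.07, and 10.4% were called lower. The median was lower in each longer bin. Spearman's rho of log2 fold change with length was -0.33 across all tested genes and -0.41 across the members, as a description, since genes of a library share its length trend.

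Set against genes of their own length bins, the members were close to the reference. Their median difference from the bin's median was -0.01, and 26 of 50 lay below it. The bins they occupy held, in the members' proportions, 5.78% of other genes called lower, beside 12% of the members. By class the median difference was -0.06 for DNA methylation genes, -0.03 for acetyltransferases, 0.00 (0.002) for deacetylases, -0.02 for methyltransferases and 0.03 (0.025) for demethylases. Of the genes called, Kat2b stood farthest from its bin (-0.16), then Kmt2c (-0.12), Kdm5a (-0.09), Ep300 (-0.08), Kat6a (-0.04) and Crebbp (-0.04). Ezh2, with an effective length of 1188 bases, lay in a short bin with a low value (-0.16 ± 0.13, not called), and Hdac7 in a long one with a high value. The leading Ezh2 transcript is annotated at 2115 bases, and Ezh2 had only 21 to 62 estimated counts per library.

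The slope of expression on log2 length differed between libraries. It ran from -0.08 to 0.00 (-0.002) in SIR males, from -0.02 to 0.03 in SIR females, from -0.04 to 0.03 in control males and from 0.01 to 0.08 in control females, in log2 units per doubling of length. The mean deviation of the members in a library followed that of other genes of the same lengths, with Pearson's r 0.75 and Spearman's rho 0.79 over the 31 libraries. This is a description, as both rest on the same libraries and scaling. The members averaged -0.05 ± 0.04 (SD, n = 7) in SIR males, 0.00 ± 0.03 (-0.003, n = 8) in SIR females, 0.01 ± 0.07 in control males and 0.03 ± 0.03 in control females. Relative to same-length genes these became -0.01 ± 0.04, -0.01 ± 0.02, 0.00 ± 0.06 and 0.00 ± 0.02. These means differed by less than the spread of libraries. The ranges of the groups overlapped before same-length genes were set beside them as well. They were -0.126 to 0.017 in SIR males and -0.11 to 0.094 in control males. In females they were -0.054 to 0.045 in SIR and 0.01 to 0.089 in control. The part of length in the group differences was not tested. After removal of the trend 25 of the 50 were negative, and 25 genes in all were called over both sexes.

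**Figure D4:**
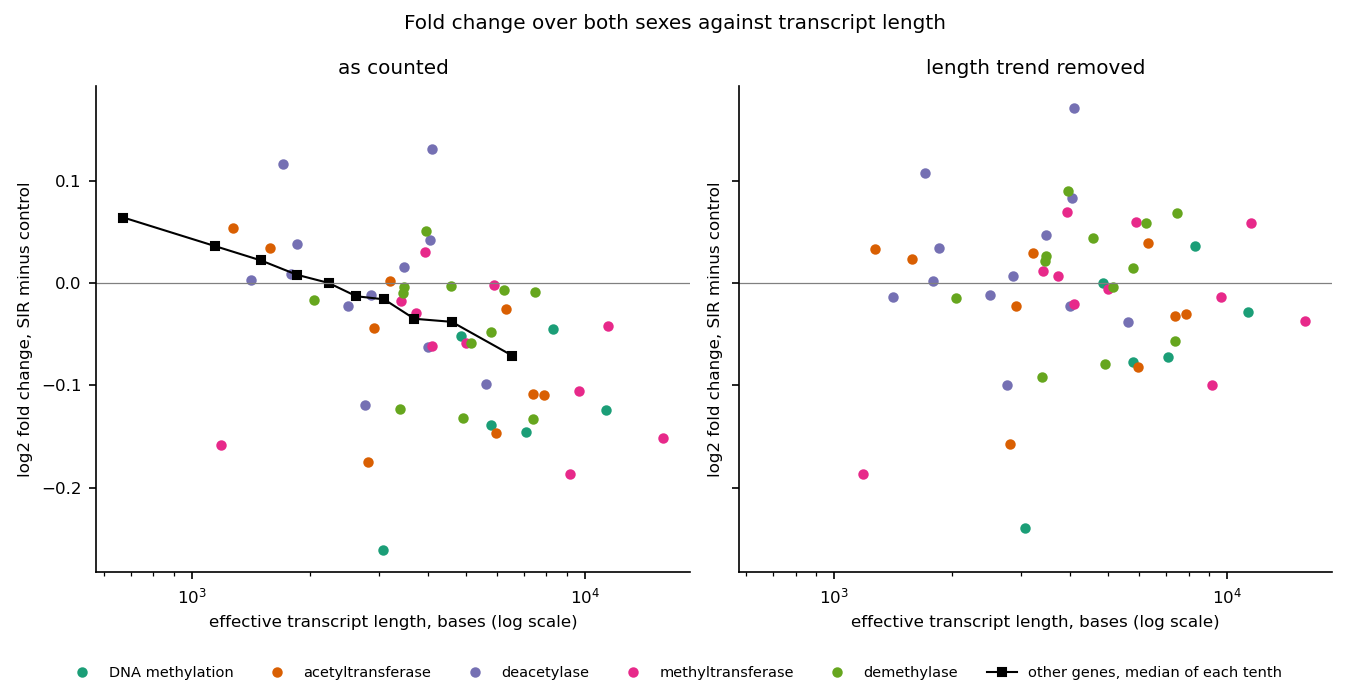
Log2 fold change over both sexes against effective transcript length in bases on a log scale, with the 50 genes coloured by class. On the left, as counted, the black line gives the median of other genes in each length bin, from 0.06 to -0.07; on the right the length trend of each library was removed and the members spread around 0.

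Genes that work beside these enzymes were read from 6 further lists, which were chosen with earlier results of these data known. Over both sexes 4 of 27 other histone methyltransferases were lower: Nsd3 (-0.12, adjusted p = 0.0137), Ash1l (-0.13, adjusted p = 0.017), Prdm2 (-0.18, adjusted p = 0.0216) and Nsd1 (-0.10, adjusted p = 0.049). The first 2 are lysine 36 methyltransferases, as is Nsd1. Nsd1 was added after its value was seen. Among all genes 2.79% were lower, and 10.4% in the longest bin. Ash1l (10309 bases), Nsd1 (9420 bases) and Prdm2 (7339 bases) are longer than that bin's median of 6543 bases. No value with the length trend removed is given for these lists. The list's median was -0.03, and none of the 27 was higher. In males Ash1l (-0.20) and Nsd3 (-0.17) passed, and in females Prdm2 (-0.22). The shares of all genes called lower were 1.05% in males and 2.24% in females. Of 38 acetyl-lysine readers and nucleosome remodellers 3 were lower: Arid2 (-0.15, adjusted p = 0.0133), a subunit of the PBAF remodeller, Bptf (-0.13, adjusted p = 0.0355) of the NURF remodeller, and Atrx (-0.19, adjusted p = 0.0422). In males these 3 and Ino80 passed, Ino80 at -0.21 (adjusted p = 0.0479). In females Arid1b (-0.17) and Chd7 (-0.23) were lower. Atrx also passed the interaction test (-0.40 in males, 0.01 in females, adjusted p = 0.035), where 1.75% of all genes were lower.

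Fewer genes passed in the remaining lists, beside 2.79% of all genes lower and 1.75% higher over both sexes. Of 20 other DNA methylation genes Mbd5 was lower (-0.11, adjusted p = 0.049). Of 16 other acetyltransferases and deacetylases Taf1 was lower (-0.10, adjusted p = 0.0352), and of 14 other demethylases Jmjd1c (-0.15, adjusted p = 0.0369). Of 47 subunits of writer and eraser complexes none was lower over both sexes and 1 was higher, Mrgbp of the Tip60 complex (0.24, adjusted p = 0.0328). In males the corepressor subunits Ncor1 (-0.19, adjusted p = 0.0221) and Tbl1x (-0.19, adjusted p = 0.0396) were lower, beside 1.05% of all genes. The list medians ran from -0.06 for readers and remodellers, whose own lengths gave -0.04 (-0.035), to 0.01 for the other demethylases.

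Markers of neighbouring tissue moved over both sexes. Of 8 choroid plexus markers 2 were lower in SIR offspring (median -0.89), and of 6 midbrain markers 2 (median -0.47). Summed choroid plexus levels were 23.2 to 41.7 CPM in SIR males, 28.7 to 276 in SIR females, 30.8 to 75.7 in control males and 28.4 to 1860.0 in control females. Midbrain levels were 14.3 to 61, 14.3 to 40.5, 30.8 to 56.3 and 20.4 to 112 CPM in the same order, and no marker was at 0 throughout a group. With the first component of the region markers as a covariate, Kat2b and Kmt2c passed over both sexes. No marker of relay neurons, oligodendrocytes, astrocytes, microglia, vessels, hypothalamus, or hippocampus and cortex was called over both sexes. Within males the relay neuron marker Necab1 was lower (-0.80), and within females Necab1 (0.83) and Calb2 (0.71) were higher. Of the 11 relay markers 8 were negative in males (median -0.16) and 5 in females (median 0.015). The astrocyte marker S100b was higher in males (0.23), and Slc1a3 (0.24) and the cortical marker Tbr1 (1.05) were higher in females. Of the 8 astrocyte markers 3 were negative in males (median 0.054) and 3 in females (median 0.015). Of the 8 hippocampus and cortex markers 2 were negative in females (median 0.20).

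Transcripts within genes were compared after the data were seen, over 36595 transcripts. Of 186 tested transcripts of 44 members, 2 changed in usage over both sexes, beside a background of 0.484%, and none changed in males (0.404%), in females (0.213%), in the interaction (0.26%) or between the sexes (0.525%). The 2 were Sirt1-202, which took a larger share in SIR offspring, and Kmt2d-202, which took a smaller one. Sirt1 encodes a nuclear deacetylase of the sirtuin family. Sirt1-202 skips exon 2 of the main transcript Sirt1-201, an exon of 117 bases within the coding sequence, so the frame is kept and 39 codons are left out. The exon lies on chromosome 10 at chr10:63336980-63337096 of GRCm38, on the minus strand. The transcripts also differ by 3 bases at the 5′ end and 51 at the 3′ end. The sequences below, from GENCODE M21 transcripts, show the skipped exon and not the ends. Capitals mark exon 2, and the lower-case flanks of 20 bases are exons 1 and 3, which meet directly in Sirt1-202.
Sirt1-201: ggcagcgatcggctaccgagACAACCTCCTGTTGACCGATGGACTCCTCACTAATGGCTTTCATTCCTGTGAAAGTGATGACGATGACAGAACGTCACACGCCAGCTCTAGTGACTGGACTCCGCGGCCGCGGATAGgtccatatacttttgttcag
Sirt1-202: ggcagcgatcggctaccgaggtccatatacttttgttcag

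The exon-skipping Sirt1-202 took 0% to 63.1% of Sirt1 counts in SIR libraries (median 25.5%) and 0% to 20.3% in controls. At least 1 estimated count fell to it in 12 of 15 SIR and 6 of 16 control libraries. In SIR males the median was 37.7% and in SIR females 22.8%, against 3.15% in control males. Of the SIR libraries 9 lay above the highest control, whereas SIR male 15 and SIR females 2 and 5 held none. The mean share was 28.8% ± 22.7 (SD, n = 15) in SIR and 4.8% ± 7.15 (n = 16) in control offspring, a difference of 24.4 percentage points within sex (permutation test within sex, 2-sided, p = 0.00033, 100000 resamples). That transcript was chosen for its usage test, so this p is not independent of the choice.

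In the usage test the log2 fold change relative to the other Sirt1 transcripts was 1.95 (edgeR, adjusted p = 0.0448 over all transcripts). It was 1.91 in males (adjusted p = 0.682) and 1.996 in females (adjusted p = 0.837), so neither sex passed alone. Sirt1 as a whole had only 92 to 250 estimated counts per library, and its total did not pass the test (-0.12 ± 0.08, adjusted p = 0.431). Since the transcripts share all other bases, the share is kallisto's estimate from the few reads that tell them apart, and no count of junction reads was analysed here. Leaving out 1 library left the direction in place (1.84 to 2.31), with adjusted p from 0.015 to 0.108, and 22 of these fits did not pass. It was also lost without the 8 libraries numbered apart (adjusted p = 0.0874) and without the 2 shallowest (adjusted p = 0.0624).

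**Figure D5:**
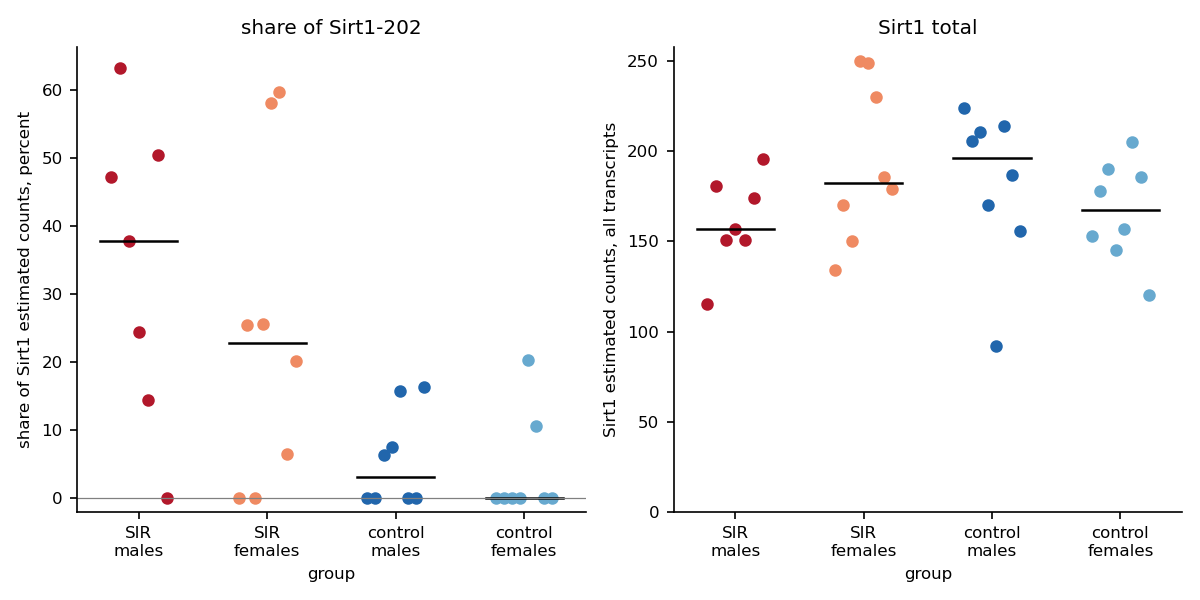
On the left, the percent of Sirt1 estimated counts assigned to Sirt1-202 in each library by group; on the right, the total Sirt1 estimated counts, with the group median as a line. SIR libraries reach 63.1% and control libraries 20.3%, while the totals of 92 to 250 counts overlap.

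Kmt2d-202 belongs to Kmt2d (MLL4), the paralogue of Kmt2c. It took 1.76% ± 2.59 (SD, n = 15) of Kmt2d counts in SIR and 5.72% ± 8.29 (n = 16) in control offspring. The usage change was -1.24 (edgeR, adjusted p = 0.0218), but the share itself did not differ by the permutation test within sex (p = 0.098). The highest control share was 27.4%, and the call was absent without SIR male 1, control males 19 or 23, or control females 26 or 31. It was absent too without the 8 libraries numbered apart (adjusted p = 0.243) and without the 2 shallowest (-0.84, adjusted p = 0.54).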

How the data were processed

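RNA-seq of polyadenylated thalamus RNA was deposited as 1 kallisto table per library, with estimated counts, TPM values and effective lengths for 105878 transcripts. Per the file headers, the estimated count is the authors' unnormalised share of reads per transcript, and TPM was scaled by the authors to a fixed total. FastQC, kallisto and the build GRCm39 are named per the submitters' processing notes, and versions and strand setting are not given in the sources used here. Overlapping and antisense genes are therefore uncertain.

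Transcripts were matched by identifier to GENCODE M21 (build GRCm38), which gave names and the Sirt1 sequences. The 929 unmatched transcripts (0.69% to 0.76% of counts) were left out. Estimated counts were summed per gene, rounded and tested with edgeR 4.0.16 (R 4.3.3): filterByExpr, TMM, robust quasi-likelihood, a mean per group, 31 libraries, 27 residual degrees of freedom, common biological coefficient of variation 0.13, threshold 0.05. CPM values are TMM-scaled. The reference was 10 bins of TPM-weighted effective length. The length trend was a spline with 5 degrees of freedom per library, used as an offset. Usage was tested with edgeR diffSpliceDGE.

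Scripts were tested on simulated data. No label ties animals to litters, so p-values rest on the variation among these 31 libraries alone. Members, lists, tests and most alternatives were chosen with earlier results of these data known, and transcript usage was added after the data were seen. Full values were given for members called in any comparison and, per class, for the smallest p and the highest TPM. Further lists were named by smallest p. Alternatives were other scaling and filters, DESeq2 1.42.0, limma 3.58.1 (voom with weights, and trend on log2(TPM + 1)), length offsets, a region covariate and left-out libraries.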

Additional observations from a re-analysis of the deposited data

Results flagged for a closer look

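Of the 200 sets formed by 50 genes in 4 groups, 16 held a library that stood apart, with a gap to its nearest neighbour that was large against the range of its group. Chance gives about 1 in 20 for a single set, but the sets share the same 31 libraries and are not independent. Control female 31, the shallowest library, was highest in its group for Hdac2 (72.7 CPM), Kmt2a (185 CPM), Kmt2e (119 CPM) and Kdm2a (102 CPM) and lowest for Ehmt2 (125 CPM). SIR female 10 was lowest for Ep300 (81.8 CPM) and highest for Kdm3a (32.0 CPM). SIR male 14 was lowest for Hdac6 (26.7 CPM) and highest for Hdac9 (94.0 CPM). The remaining libraries stood apart for 1 gene each. Control female 20 was highest for Dnmt1 (66.1 CPM) and control female 18 for Kat8 (18.2 CPM). Control male 28 was highest for Dnmt3b (0.762 CPM) and control male 25 for Tet1 (13.3 CPM), and control male 16 was lowest for Kdm2b (16.9 CPM). SIR female 2 was highest for Hdac4 (68.4 CPM), and SIR male 1 was lowest for Setd2 (58.2 CPM).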

How the results depend on the processing

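No paired analysis was possible because the replicate numbers run from 1 to 31 and no groups share one. Over both sexes, where 6 members passed, 9 passed at a threshold of 0.1, 7 with limma-voom, 6 with DESeq2, and 5 with RLE scaling or a filter of 1 CPM in 15 libraries. Only 1 passed with upper-quartile scaling, with no filter on low counts, without the library labelled SIR female 5 and without the 2 shallowest libraries. With the region covariate 2 passed, and 0 passed with transcript length offsets, with the length trend removed, with limma-trend on log2(TPM + 1) and without the 8 libraries numbered apart. Leaving out 1 library gave 1 to 7. In males (2 members) there were 6 at a threshold of 0.1, 1 with no filter, 5 with DESeq2, 6 with limma-voom, 0 with offsets, with the trend removed and on TPM, 6 without the 8 libraries, and 0 to 6 leaving out 1. In females (1 member) there were 2 at 0.1, 2 with DESeq2, 2 with limma-voom, 0 with offsets, with the trend removed, on TPM and without the 8 libraries, and 0 to 3 leaving out 1. In the interaction (0 members by edgeR, 6 at an unadjusted p under 0.05) there was 1 at 0.1, 2 with limma-voom, and 0 to 1 leaving out 1. Between the sexes (4 members) there were 7 at 0.1, 2 with no filter, 8 with limma-voom, 1 with the trend removed, 2 on TPM, 2 without SIR female 5, 1 without the 8 libraries, and 2 to 8 leaving out 1. No value changed sign among the called genes. The cause of these differences was not tested. The members' median against genes of the same length (-0.01) stayed between -0.03 and 0.00 (0.003) under all alternatives run. The median SE of 0.04 (log2) limits what these libraries can show of changes as small as those called.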
